A study of Mus musculus with 6 samples.

Results

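The AP-1 and EGR immediate early factors are a set of 10 transcription factor genes: the FOS genes Fos, Fosb and Fosl2, the JUN genes Jun, Junb and Jund, the EGR genes Egr1, Egr2 and Egr3, and Atf3. They were chosen by symbol, with earlier results of these data known, and each matched 1 of the 43629 gene identifiers in the count table. All 10 passed the filter on low counts, which left 15432 genes to be tested. The table came from RNA sequencing of leukaemic bone marrow of C57BL/6 mice taken at the end point of disease. Marrow had been frozen, and after thawing the cells bearing Kit, the receptor for stem cell factor, were sorted out. All mice carried Cbfb-MYH11, the fusion gene formed by an inversion of a chromosome in human acute myeloid leukaemia. The 6 libraries formed 2 groups of 3 that differed at Gata2, which encodes a transcription factor that blood progenitors and the mast cell lineage need. Replicates 3, 5 and 6 were Gata2+/+. Replicates 7, 9 and 11 were Gata2+/f, with the altered Gata2 allele that is labelled f and 1 allele not so labelled. Which agent or Cre, if any, recombined that allele is not given in the sources used here. The labels also do not say that each library is a separate mouse, so p-values measure the spread between these libraries, which may in part be technical.

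Immediate early genes are transcribed within minutes of a stimulus without the need for new protein. FOS proteins bind DNA only as dimers with JUN proteins, and the dimer is the factor AP-1; Atf3 is a related leucine zipper protein induced by stress. EGR proteins bind GC-rich sites through zinc fingers, and Egr1 and Egr2 are known in marrow for promoting the monocyte and macrophage fate. The MAP kinase cascades induce both families through SRF with its ETS partners and through CREB. The same genes are known to respond to the handling of cells during isolation.

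The promoters are printed because the members are induced genes and moved together across libraries. RefSeq promoters on GRCm38.p6 were matched for 8 of the 10 members. The sequences below run 5′ to 3′ on the gene's own strand over the bases upstream of the RefSeq start. Capitals mark a match to 1 of the motifs named after them. The 4 FOS and JUN promoters printed lie at chr12:85473640-85473889 (forward strand, Fos), chr7:19310052-19310295 (reverse strand, Fosb), chr4:95052223-95052472 (reverse strand, Jun) and chr8:84978749-84978998 (reverse strand, Junb). Those of Fosl2, Jund and Atf3 were matched too and are not printed. None of the motifs named below was found in the Fosl2 or Jund window. The Fosl2 window belongs to a start 671 bases inside the annotated gene, and all of its 250 bases are annotated as exon. The Jund window belongs to a start 1210 bases upstream of the annotated gene start. For both genes the bases just before the annotated gene start were therefore not searched. The Egr2 promoter lies at chr10:67537619-67537868 on the forward strand and belongs to a start 2394 bases inside the annotated gene.
Fos: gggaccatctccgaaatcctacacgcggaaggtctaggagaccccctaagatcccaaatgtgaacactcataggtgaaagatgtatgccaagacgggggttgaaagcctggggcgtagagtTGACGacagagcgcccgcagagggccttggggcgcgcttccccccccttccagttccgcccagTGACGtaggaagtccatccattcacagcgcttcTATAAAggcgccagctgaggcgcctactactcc
Fosb: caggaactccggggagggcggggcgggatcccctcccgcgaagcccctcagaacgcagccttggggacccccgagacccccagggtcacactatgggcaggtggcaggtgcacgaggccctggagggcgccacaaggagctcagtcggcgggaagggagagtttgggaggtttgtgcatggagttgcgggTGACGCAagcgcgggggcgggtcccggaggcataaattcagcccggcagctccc
Jun: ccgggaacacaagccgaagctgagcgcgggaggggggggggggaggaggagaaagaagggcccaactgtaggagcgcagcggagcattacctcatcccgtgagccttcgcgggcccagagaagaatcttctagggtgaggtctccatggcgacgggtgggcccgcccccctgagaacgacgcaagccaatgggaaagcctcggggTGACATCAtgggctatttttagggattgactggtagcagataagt
Junb: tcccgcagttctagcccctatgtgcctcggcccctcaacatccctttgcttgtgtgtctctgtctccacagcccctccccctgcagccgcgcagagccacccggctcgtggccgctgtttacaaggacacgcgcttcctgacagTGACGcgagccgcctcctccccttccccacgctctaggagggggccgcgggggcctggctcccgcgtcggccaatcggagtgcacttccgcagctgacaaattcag
Egr2: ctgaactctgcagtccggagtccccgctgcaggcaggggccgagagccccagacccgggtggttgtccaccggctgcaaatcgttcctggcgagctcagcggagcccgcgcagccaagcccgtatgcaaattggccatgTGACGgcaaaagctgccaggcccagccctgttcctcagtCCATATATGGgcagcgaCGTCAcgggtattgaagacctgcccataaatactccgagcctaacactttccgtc

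Motifs were searched on both strands over the whole RefSeq windows. The core of the cAMP response element, TGACG, to which CREB and ATF proteins bind, was found in windows of 5 of the 8 matched members (Fos, Fosb, Junb, Egr2 and Atf3). It is in 17.8% of all 32851 promoters of the same length. That share counts single promoters, whereas a member counted if any of its windows matched, and Egr2 had several. The Atf3 match lies within the 7 bases before its RefSeq start, which are annotated as exon. That start is 34706 bases inside the annotated gene. Fos held the TGACG core at 129 and at 66 bases before the start, the latter ahead of a TATAAA match at 33 bases. TATAAA, the TATA box, is in 12.4% of all promoters. In Fosb this core was part of the longer TGACGCA (1.75% of all promoters), so these 2 motifs overlap. Jun held TGACATCA at 45 bases, an AP-1-like site that is in 2.93% of promoters; it was added to the search after the sequence had been read. The CArG box, the binding site of SRF, was found in Egr2 as CCATATATGG at 72 bases and is in 1.47% of all promoters. The windows reach only 250 bases upstream, and Egr1 and Egr3 had no matched promoter. Sites farther upstream, or in those 2 genes, were therefore not searched. The full cAMP response element TGACGTCA (1.55% of promoters) and the AP-1 site TGANTCA (6.75%) matched in no searched window of the 8 members. A match describes letters in the window and says nothing of binding in these cells.

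Library totals ranged from 53789568 to 67854631 expected counts. Values are given as CPM, the count per library size after TMM scaling, whose factor was lowest, at 0.821, in Gata2+/+ replicate 3. Gata2 itself was at 886, 887 and 737 CPM in Gata2+/+ replicates 3, 5 and 6 and at 498, 273 and 264 CPM in Gata2+/f replicates 7, 9 and 11, so the libraries follow their labels without overlap. Kit, the marker of the sort, was detected in every library, at 826 to 1466 CPM in Gata2+/+ and at 175 to 328 CPM in Gata2+/f. In Gata2+/+ replicate 3, 524 genes (3.4% of those tested) were at least 2-fold above both other Gata2+/+ libraries. Among them were 7 of the 10 members, namely Fosb, Fosl2, Jun, Egr1, Egr2, Egr3 and Atf3. By the same rule, 1182 genes (7.66%) were at least 2-fold above both other Gata2+/f libraries in Gata2+/f replicate 11. Among those were 3 members, Fos, Fosl2 and Atf3. Results are given with and without Gata2+/+ replicate 3, where more of the members stood out. All 10 members had their highest value in that library, so less negative fold changes without it were fixed in advance.

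All 10 members had negative log2 fold changes in Gata2+/f, a sign that 48.9% of all tested genes had, and none passed the threshold of adjusted p under 0.05. No gene of the table passed it in either direction (0% lower and 0% higher) by edgeR's quasi-likelihood test with Benjamini-Hochberg adjustment. At an unadjusted p under 0.05, 1768 genes were lower (11.5%) and 1718 were higher (11.1%), with 6 members (Fos, Fosb, Jun, Junb, Jund and Egr1) among the lower and 0 among the higher. DESeq2's Wald test called 879 genes lower (5.7%) and 950 higher (6.16%) at adjusted p under 0.05, and called Fosb, Jun, Junb, Jund and Egr1 lower. The 3 Gata2+/f libraries lay below all 3 Gata2+/+ libraries for 4 members (Jun, Junb, Jund and Egr1), as for 16.6% of tested genes. Without Gata2+/+ replicate 3, DESeq2 called 2.37% of genes lower and 2 members, Junb and Egr1, and edgeR had 3 members (Junb, Jund and Egr1) at an unadjusted p under 0.05, against 6.51% of genes. The median log2 fold change of the members was −1.94, against 0.02 over all tested genes, and without Gata2+/+ replicate 3 these medians were −0.93 and 0.09. These libraries are of bulk cells, in which fewer cells of a type and less RNA per cell cannot be told apart.

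**Figure D1:**
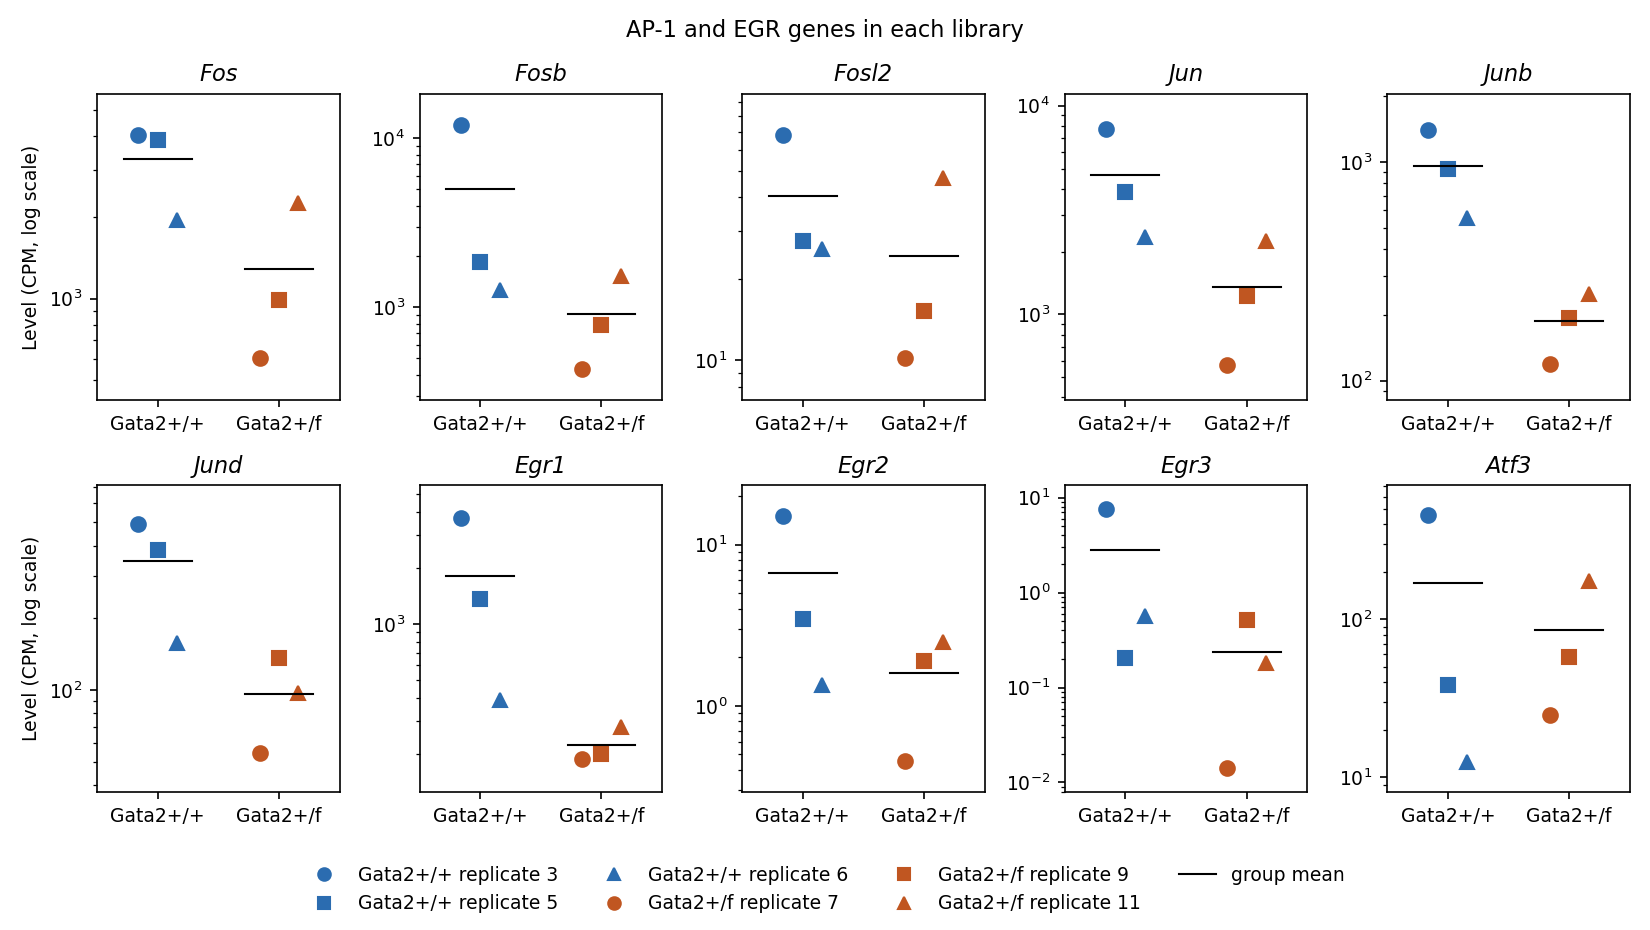
Level of each of the 10 members in the 6 libraries, in CPM on a log axis, with 1 point per library and the Gata2+/+ and Gata2+/f libraries in separate colours. Gata2+/+ replicate 3 is, with TMM scaling, the highest library for all 10 genes, and Gata2+/f replicate 7 is the lowest for 9, the exception being Atf3.

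Within both groups the libraries differed widely and in a shared way. Gata2+/+ replicate 3 was the highest of the 6 for all 10 members, where 18.6% of tested genes had their highest value. With upper quartile factors or with library totals alone it was highest for 9, all but Fos, against 13.7% and 7.86% of genes. Gata2+/f replicate 7 was the lowest for 9 members, against 18.9% of tested genes, and Atf3 was lowest in Gata2+/+ replicate 6. Gata2+/f replicate 11 was the highest of its group for 8 members, all but Jund and Egr3, as for 31% of genes. The median deviation of the members from their own 6-library mean, on the log2 CPM scale, was 2.25, 0.69 and −0.06 in Gata2+/+ replicates 3, 5 and 6, and −1.69, −0.82 and 0.00 in Gata2+/f replicates 7, 9 and 11. The highest and lowest libraries of a member were a median of 4.03 log2 units apart, against 1.50 over all tested genes. The medians of Gata2+/+ replicate 6 and Gata2+/f replicate 11 were thus close although the groups differ. Jun, Fos and Fosb were close in these 2 libraries as well, while Junb was higher in the former and Atf3 in the latter.

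Among the JUN genes, Junb, an AP-1 subunit that weakens activation by Jun at many promoters, was the member whose groups were farthest apart. The gene lies at chr8:84974484-84978718 on the reverse strand of GRCm38. Its level was 1399, 930.2 and 556 CPM in Gata2+/+ replicates 3, 5 and 6 and 119, 193 and 249 CPM in Gata2+/f replicates 7, 9 and 11. The lowest Gata2+/+ library was 2.23-fold above the highest Gata2+/f library. The means were 962 ± 422 and 187 ± 65.2 CPM (SD, n = 3 each). Junb in Gata2+/f was thus fitted at 19.5% of its Gata2+/+ level, a log2 fold change of −2.36 (SE 0.43; 95% interval −3.36 to −1.36). The adjusted p was 0.0955 by edgeR's quasi-likelihood test and 5.80e-05 by DESeq2 (Benjamini-Hochberg in both). Leaving out each library in turn gave −2.60 to −1.94, the weakest being without Gata2+/+ replicate 3, where edgeR's adjusted p was 0.244 and DESeq2's 0.00355. The gene overlaps Prdx2, a peroxiredoxin gene on the opposite strand, which was at 150 to 294 CPM in Gata2+/+ and 270 to 674 CPM in Gata2+/f. The strand setting of the counting is not given in the sources used here, so reads of the 2 genes may not be fully separated. Prdx2, named after its values were seen, overlapped between the groups and had a log2 fold change of 0.94, opposite in sign to that of Junb.

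Jun, the partner that lets FOS proteins bind DNA, was the most abundant JUN gene per length in every library. It lies at chr4:95049034-95052222 on the reverse strand. Its level was 7727, 3853 and 2353 CPM in Gata2+/+ replicates 3, 5 and 6 and 573, 1229.8 and 2236 CPM in Gata2+/f replicates 7, 9 and 11. The groups did not overlap, but Gata2+/f replicate 11 came within 1.05-fold of Gata2+/+ replicate 6. Means were 4644 ± 2773 and 1346 ± 838 CPM (SD, n = 3 each). The log2 fold change of Jun was −1.79 (SE 0.61; adjusted p = 0.166 by edgeR and 0.0417 by DESeq2), and −1.16 without Gata2+/+ replicate 3. Jund, the JUN gene that is expressed in most resting cells, was at 493, 383 and 157 CPM in Gata2+/+ and 54.4, 136 and 96.9 CPM in Gata2+/f, in the same order of replicates. Its groups lay 1.16-fold apart. The log2 fold change of Jund was −1.85 (SE 0.49; adjusted p = 0.122 by edgeR and 0.0101 by DESeq2), and −1.46 without Gata2+/+ replicate 3, where DESeq2 no longer called it (adjusted p = 0.123). An antisense transcript, Gm11175, overlaps Jund and was at 24.7 to 104 CPM in Gata2+/+ and 10.7 to 26.1 CPM in Gata2+/f, so part of the Jund counts is uncertain in the same way.

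The shares of the 3 JUN genes varied by library, but less than their sum did. Per kilobase of exon, their summed level was 3326, 1842 and 1074 CPM per kb in Gata2+/+ and 264, 551 and 868 CPM per kb in Gata2+/f. Jun made up 65.6% to 80.8% of that sum over the 6 libraries, Junb 12.5% to 22.5% and Jund 6.70% to 14.8%. The ratio of Junb to Jun was 0.251, 0.335 and 0.328 in Gata2+/+ and 0.289, 0.218 and 0.155 in Gata2+/f. The 2 groups overlapped in this ratio (p = 0.2, exact two-sided permutation test). In 3 against 3 the smallest p that test allows is 0.1, so it cannot show that the ratio was the same. In all, 6 ratios between members were tested in this way and none had an adjusted p under 0.6.

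Among the FOS genes, Fos, the founding member of the family, overlapped between the groups. The gene lies at chr12:85473890-85477273 on the forward strand. Its level was 4031, 3861 and 1958 CPM in Gata2+/+ replicates 3, 5 and 6 and 600.4, 989 and 2268 CPM in Gata2+/f replicates 7, 9 and 11. Gata2+/f replicate 11 was above Gata2+/+ replicate 6, and the 2 other Gata2+/f libraries were below all Gata2+/+ libraries. The means were 3283 ± 1151 and 1286 ± 872 CPM (SD, n = 3 each). The log2 fold change of Fos was −1.35 (SE 0.54; adjusted p = 0.201 by edgeR and 0.106 by DESeq2), and −1.14 without Gata2+/+ replicate 3. Over all libraries left out in turn it ran from −2.01, without Gata2+/f replicate 11 (adjusted p = 0.0925 by edgeR), to −0.97, without Gata2+/f replicate 7. For Fos, Gata2+/+ replicate 3 was only 1.04-fold above the next Gata2+/+ library, and leaving replicate 3 out moved the log2 fold change of Fos less than that of any other member.

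Fosb, a FOS gene that peaks after Fos in many stimulated cells, showed the contrary. It lies at chr7:19302696-19310051 on the reverse strand. Its level was 11995, 1862 and 1273 CPM in Gata2+/+ replicates 3, 5 and 6 and 432, 781 and 1537 CPM in Gata2+/f replicates 7, 9 and 11. In Gata2+/+ replicate 3 it took 1.20% of all scaled counts and was 6.44-fold above the next Gata2+/+ library, while the 5 other libraries overlapped. The log2 fold change was −2.46 (SE 0.92; adjusted p = 0.185 by edgeR and 0.0368 by DESeq2) and −0.73 without that library. Fosl2, which encodes the FOS protein Fra-2, was low throughout, at 67.8, 27.7 and 25.7 CPM in Gata2+/+ and 10.2, 15.2 and 47.3 CPM in Gata2+/f. Its groups overlapped, with a log2 fold change of −0.74 (SE 0.63; adjusted p = 0.507 by edgeR), of −0.09 without Gata2+/+ replicate 3 and of −1.63 without Gata2+/f replicate 11.

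The make-up of the FOS family set Gata2+/+ replicate 3 apart from the 5 other libraries. Per kilobase of exon, Fosb there was 1.12 times as abundant as Fos, while the ratio was 0.182 and 0.245 in the other 2 Gata2+/+ libraries and 0.271, 0.297 and 0.255 in Gata2+/f. As a share of the 3 FOS genes per kilobase, Fosb was 52.8% in Gata2+/+ replicate 3 and 15.4% to 22.9% in each of the others. Fosl2 was at most 0.402% in any library. Between the groups the Fosb to Fos ratio did not separate (p = 1.0, exact two-sided permutation test). The ratio of Fos to Jun per kilobase was lowest, at 0.707, in the same library and 1.09 to 1.42 elsewhere.

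**Figure D2:**
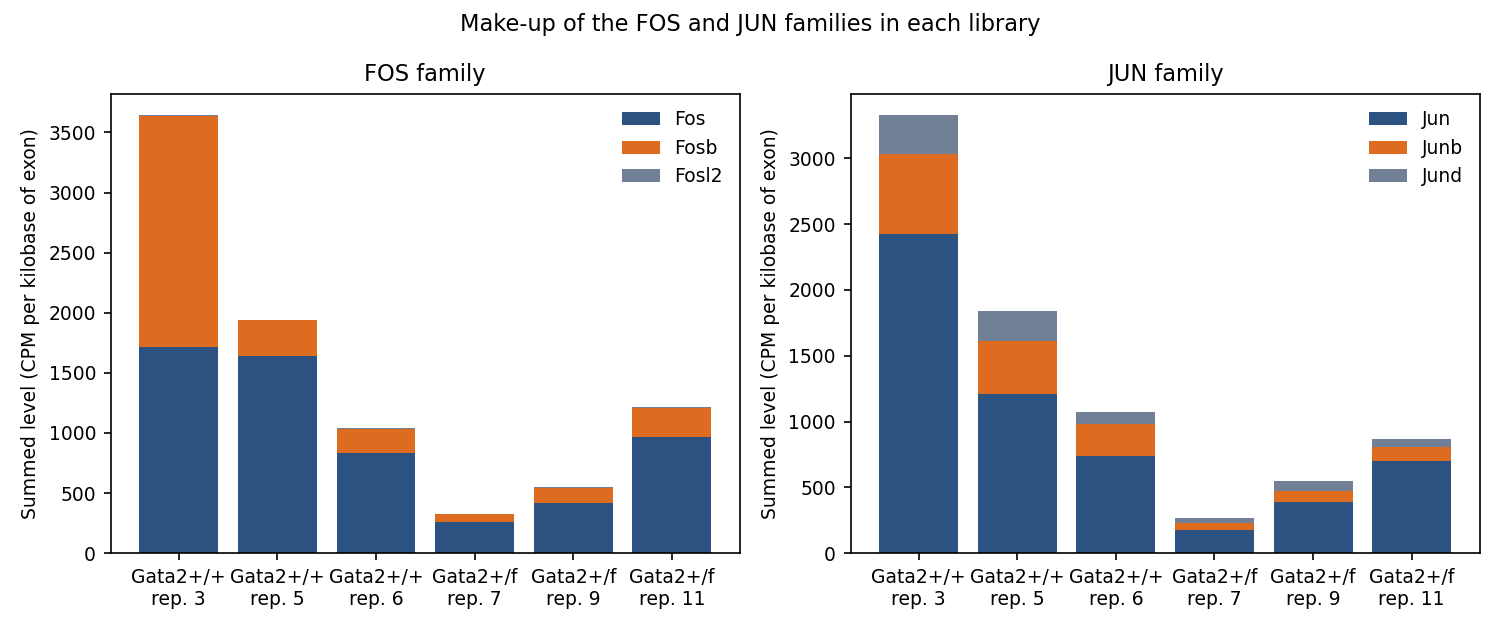
Level per kilobase of exon union, in CPM per kb, of the FOS and JUN genes in each of the 6 libraries. The members of a family are stacked in 1 bar that starts at 0. The Fosb part of the FOS bar is 52.8% in Gata2+/+ replicate 3 and at most 22.9% in the other 5 libraries.

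Among the EGR genes, Egr1 had the largest fitted difference of the abundant members. It encodes a zinc finger factor induced by growth factors and stress, and lies at chr18:34859823-34864984 on the forward strand. Its level was 3692, 1362 and 388 CPM in Gata2+/+ replicates 3, 5 and 6 and 188, 199.6 and 277 CPM in Gata2+/f replicates 7, 9 and 11. The Gata2+/f libraries lay close together and below all Gata2+/+ libraries, which spread widely; the groups were 1.40-fold apart. Means were 1814 ± 1698 and 222 ± 48.6 CPM (SD, n = 3 each). Egr1 in Gata2+/f was fitted at 12.2% of its Gata2+/+ level, a log2 fold change of −3.03 (SE 0.75; 95% interval −4.77 to −1.30). The adjusted p was 0.108 by edgeR and 0.000837 by DESeq2. Without Gata2+/+ replicate 3 the log2 fold change was −1.95, with an adjusted p of 0.265 by edgeR and 0.0289 by DESeq2. Egr1 made up 98.5% to 99.7% of the 3 EGR genes per kilobase in every library, so the summed level of the family followed this gene.

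Egr2 and Egr3 were near the low end of detection. Egr2, known for its part in myelination and in macrophages, had 754, 202 and 87 expected counts in Gata2+/+ replicates 3, 5 and 6 and 32, 113 and 166 in Gata2+/f replicates 7, 9 and 11. Only Gata2+/+ replicate 3 stood clear of the others. Its log2 fold change was −2.04 (SE 0.98; adjusted p = 0.260 by edgeR) and −0.54 without that library. Egr3 had 381, 12 and 36 expected counts in Gata2+/+ and 31 or fewer in each Gata2+/f library, of which replicate 7 had 1. Its log2 fold change of −3.56 (SE 1.56; adjusted p = 0.228 by edgeR) rests on Gata2+/+ replicate 3 and was −0.63 without it. Egr3 did not pass a filter of 1 CPM in 3 libraries.

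Atf3, a stress-induced partner of JUN proteins, was the member whose direction turned. It was at 455 CPM in Gata2+/+ replicate 3, 38.6 in replicate 5 and 12.6 in replicate 6, and at 24.9, 58.1 and 174 CPM in Gata2+/f replicates 7, 9 and 11. Gata2+/+ replicate 3 was 11.8-fold above the next Gata2+/+ library, and the 2 other Gata2+/+ libraries were below Gata2+/f replicates 9 and 11. The log2 fold change of Atf3 was −0.98 (SE 1.23; adjusted p = 0.661 by edgeR), 0.09 by limma voom on all 6 libraries, and 1.78 without Gata2+/+ replicate 3 (adjusted p = 0.425 by edgeR). Across the 6 libraries the log2 levels of member pairs had Pearson r from 0.35 (Junb and Atf3) to 0.96 (Fos and Jun). These r describe 6 libraries that share 2 genotypes and 1 high library.

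**Figure D3:**
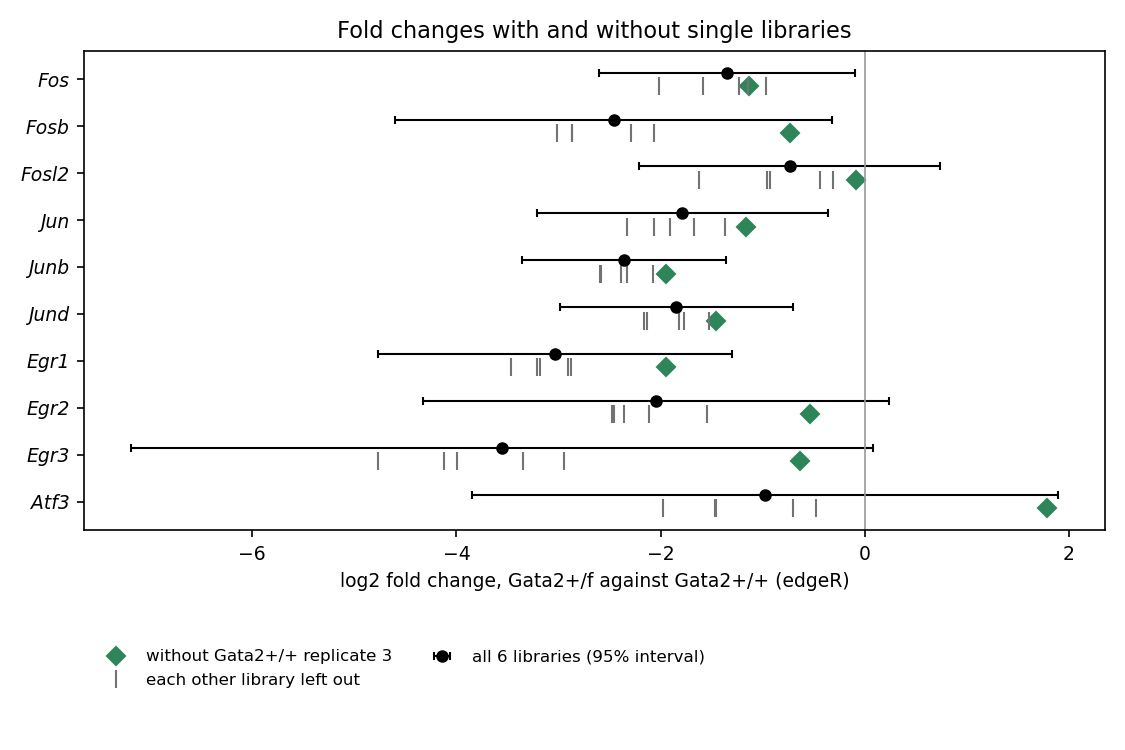
Log2 fold change of each member, Gata2+/f against Gata2+/+, from edgeR. Black points with bars are all 6 libraries with the 95% interval, green diamonds are the fit without Gata2+/+ replicate 3, and grey ticks leave out 1 of the other libraries each; Junb moved from −2.36 to −1.94 without that library and Atf3 from −0.98 to 1.78.

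Other immediate early genes were read from a list of 33, of which 32 were tested. Their log2 fold changes were negative for 27 and positive for 5, with a median of −1.12. None was called by edgeR, 13 were lower and 3 higher at an unadjusted p under 0.05, and DESeq2 called 6 lower and 0 higher. The same rules took 11.5% and 11.1% of all tested genes by edgeR and 5.7% and 6.16% by DESeq2. The 4 with the smallest p were Per1, a clock gene induced by cAMP, the mRNA decay factors Zfp36l2 and Zfp36l1, and Ppp1r15a, a stress-induced phosphatase subunit. Per1 was at 739, 355 and 464 CPM in Gata2+/+ replicates 3, 5 and 6 and at 102, 110.1 and 176 CPM in Gata2+/f replicates 7, 9 and 11. Zfp36l2 was at 769, 1814 and 1667 CPM in Gata2+/+ and 416, 331 and 370.1 CPM in Gata2+/f, and was lowest, not highest, in replicate 3 of its group. The log2 fold changes were −2.01 for Per1, −1.93 for Zfp36l2, −1.65 for Zfp36l1 and −1.58 for Ppp1r15a, and without Gata2+/+ replicate 3 they were −1.61, −2.18, −1.34 and −1.15. Klf6, chosen after its values were seen, was at 8972 CPM in Gata2+/+ replicate 3 and at 800.3, 618, 189, 324 and 941 CPM in the other libraries. In this list 15 of 32 genes were at least 2-fold higher in Gata2+/+ replicate 3 than in both other Gata2+/+ libraries, against 3.4% of all tested genes. Without that library the median of the list was −0.38, and DESeq2 called 3 lower, against 2.37% of all tested genes.

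The heat shock response, which protects proteins from unfolding, was high in the same library. The groups overlapped for all 13 tested genes of this list. Of all tested genes, 16.6% were lower and 13.1% higher in Gata2+/f without overlap. With 1 high library in Gata2+/+, this overlap cannot decide whether the genotypes differ. Of the 13, 9 were at least 2-fold higher in Gata2+/+ replicate 3 than in both other Gata2+/+ libraries, against 3.4% of all tested genes. The co-chaperone gene Dnajb1 was at 1289 CPM there, against 200.1 and 111 CPM in the other 2 and 99.0 to 111 CPM in Gata2+/f. Its log2 fold change was −2.36 (adjusted p = 0.174 by edgeR and 0.0325 by DESeq2), and −0.55 without that library (DESeq2 adjusted p = 0.470). The Hsp70 genes Hspa1a and Hspa1b, named after their values were seen, are near-identical copies whose counts cannot be assigned with certainty. They were at 796 and 1395 CPM in Gata2+/+ replicate 3 and at most 130 and 285 CPM in any other library. The median log2 fold change of the list was −0.20, and 0.55 without that library. The summed list was at 7537 to 22190 CPM in Gata2+/+ and 9246 to 12866 CPM in Gata2+/f. Per-library medians of its deviations were 1.17, −0.43 and −0.50 in Gata2+/+ and 0.14, −0.49 and −0.09 in Gata2+/f. The 13 mitochondrially encoded mRNAs had a median log2 fold change of 0.15, with 0 below an unadjusted p of 0.05 in edgeR and 0 calls by DESeq2. The part of stress or handling in the member values was not tested.

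**Figure D4:**
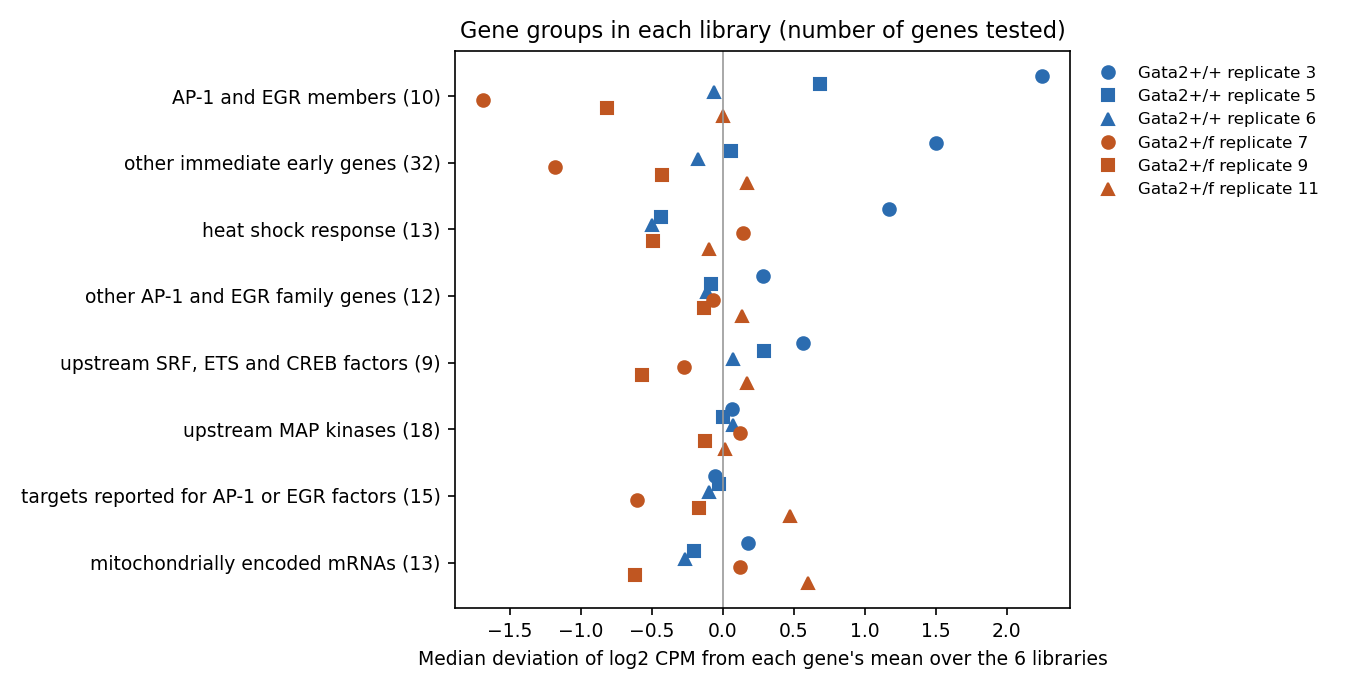
Median deviation of log2 CPM from each gene's 6-library mean, by library, for several gene groups. Among them are the 10 members, the 32 other immediate early genes and the 13 heat shock genes. The members span 2.25 in Gata2+/+ replicate 3 to −1.69 in Gata2+/f replicate 7, while the heat shock genes stand out only in Gata2+/+ replicate 3, at 1.17.

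Upstream of these genes, 9 factors of the SRF, ETS and CREB groups were tested, of which 8 had negative log2 fold changes, with a median of −0.53. Elk4, an ETS partner of SRF, was at 200.3, 106 and 171 CPM in Gata2+/+ and 60.4, 49.2 and 72.4 CPM in Gata2+/f. Its groups did not overlap, with a log2 fold change of −1.39 (SE 0.29; adjusted p = 0.0966 by edgeR and 0.00440 by DESeq2), and of −1.13 without Gata2+/+ replicate 3, where DESeq2 no longer called it (adjusted p = 0.0729). It was the only one of the 9 that DESeq2 called on all 6 libraries, where 5.7% of all tested genes were called lower and 6.16% higher. In edgeR, 4 of the 9 were lower and 1 higher at an unadjusted p under 0.05, against 11.5% and 11.1% of all tested genes. The related Elk3, which can repress SRF targets, went the other way at 1.19 (adjusted p = 0.215 by edgeR). The 18 MAP kinase genes split evenly, 9 negative and 9 positive, with a median of 0.02; 1, the p38 kinase gene Mapk14, was lower at an unadjusted p under 0.05, and DESeq2 called 0.

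The other AP-1 and EGR family genes, of which 12 of 13 were tested, had 8 negative and 4 positive log2 fold changes. Their median was −0.33, and 0.35 without Gata2+/+ replicate 3, so its sign turned on that library. Batf3, a leucine zipper partner of JUN proteins needed for a class of dendritic cells, was at 0.440, 2.28 and 0.545 CPM in Gata2+/+ and 4.27, 2.47 and 9.54 CPM in Gata2+/f. Its groups did not overlap and the log2 fold change was 2.31 (adjusted p = 0.173 by edgeR and 0.0283 by DESeq2). Without Gata2+/+ replicate 3 it was 1.97 and no longer called (DESeq2 adjusted p = 0.165). Mafk, a small MAF protein, had −1.43 and only −0.43 without Gata2+/+ replicate 3. The corepressors that bind EGR proteins differed in sign: Nab1 had a log2 fold change of −0.82 (adjusted p = 0.148 by edgeR, 0.0871 by DESeq2). Nab2, which EGR proteins are known to induce, had 1.02 (adjusted p = 0.186 by edgeR, 0.0211 by DESeq2) and 0.96 without Gata2+/+ replicate 3 (DESeq2 adjusted p = 0.186), with 3.08, 4.39 and 3.36 CPM in Gata2+/+ and 9.03, 6.17 and 6.79 CPM in Gata2+/f. Nab2 was higher and Egr1 lower in every Gata2+/f library than in any Gata2+/+ library, and a link between them was not tested.

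Of 15 genes reported in the literature as targets of AP-1 or EGR factors, 10 had negative log2 fold changes and 5 positive ones, and the median was −0.48. It was −0.03 without Gata2+/+ replicate 3 and 0.02 without Gata2+/+ replicate 5. DESeq2 called 1 lower and 3 higher on all 6 libraries, against 5.7% and 6.16% of all tested genes. Without Gata2+/+ replicate 3 it called 1 lower and 0 higher, against 2.37% and 2.19%. Cd69, an early activation antigen of leukocytes, was at 365, 81.3 and 106 CPM in Gata2+/+ and 4.91, 25.9 and 25.4 CPM in Gata2+/f. The log2 fold change of Cd69 was −3.30 (SE 0.80; adjusted p = 0.106 by edgeR and 0.000638 by DESeq2). Its groups did not overlap, and the value was −2.27 without Gata2+/+ replicate 3. The targets called higher on all 6 libraries were Nab2, the gelatinase gene Mmp9 and the cyclin gene Ccnd1. Mmp9 had a log2 fold change of 2.99 and Ccnd1 of 1.83, and without Gata2+/+ replicate 3 these were 2.72 (DESeq2 adjusted p = 0.0504) and 1.87 (0.0608). Mmp9, which neutrophils also store, was at 2.04, 7.59 and 1.81 CPM in Gata2+/+ and 12.5, 14.8 and 63.5 CPM in Gata2+/f.

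Summed markers of some cell types lay apart between the groups, while those of others overlapped. The 10 neutrophil markers summed to 150 to 436 CPM in Gata2+/+ and 3991 to 7944 CPM in Gata2+/f, and the 10 monocyte and macrophage markers to 442 to 1344 CPM and 1481 to 4714 CPM. The sum of the 10 mast cell and basophil markers ran the other way, from 9138 to 10879 CPM down to 920.5 to 3566 CPM. Of these 10, 9 had negative log2 fold changes and 1 a positive one. DESeq2 called 4 of them lower and 1 higher, against 5.7% and 6.16% of all tested genes. The megakaryocyte markers summed to 498 to 669 CPM in Gata2+/+ and 24.3 to 130 CPM in Gata2+/f, a sum in which Itga2b weighed most; of the 6 tested, 3 had negative and 3 positive log2 fold changes. Summed members ran from 6725 to 29882 CPM in Gata2+/+ and from 2003 to 6889 CPM in Gata2+/f. Progenitor markers summed to 2767 to 4935 CPM in Gata2+/+ and 2797 to 8242 CPM in Gata2+/f, although 6 of the 8 had negative log2 fold changes (median −0.55) and DESeq2 called 2 lower. Erythroid markers summed to 6196 to 10338 CPM in Gata2+/+ and 1115 to 6324 CPM in Gata2+/f. Of the 9 erythroid markers tested, 5 had negative and 4 positive log2 fold changes. Dendritic cell markers summed to 127 to 622 CPM in Gata2+/+ and 432 to 1118 CPM in Gata2+/f. B cell markers summed to at most 24.3 CPM, T and NK cell markers to at most 107 CPM, and stroma and endothelium markers to at most 119 CPM in any library, with the collagen gene Col3a1 at 0 in all 6. The part of a changed mix of cells in the member values was not tested.

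The genes whose log2 CPM over the 6 libraries was most like the mean of the standardised members were Nnat, Klf11, Mms19, Gm17089 and Vav1, each with Pearson r of 0.99. Klf11, a zinc finger repressor of the KLF family, was at 346, 110 and 87.8 CPM in Gata2+/+ and 23.7, 60.2 and 86.5 CPM in Gata2+/f. Mms19 and Vav1 followed the same order of libraries over a far smaller range, with log2 fold changes of −0.20 and −0.23. The pattern of Fos was most like 9130019P16Rik, Parm1, Dmd, Rps6ka2 and Slc17a9, and that of Egr1 most like Zgpat, Gm13357, Ptpn23, Otud5 and Scamp3. The kinase gene Rps6ka2, an ERK substrate, was at 342, 366 and 167 CPM in Gata2+/+ and 37.8, 59.0 and 195 CPM in Gata2+/f, and like Fos was higher in Gata2+/f replicate 11 than in Gata2+/+ replicate 6. These likenesses were picked from 15432 genes over 6 libraries and carry no test.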

How the data were processed

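Poly-A selected, stranded libraries were made from sorted c-kit+ cells, per the labels' protocols. CASAVA 1.8.2, STAR 2.5.4a, RSEM 1.3.0 and GRCm38 are named in the submitters' processing notes. The authors deposited RSEM expected counts, estimated read counts per Ensembl gene, without normalization; 11.2% to 12.1% of a library's values were not whole. Annotation release and strand setting of the counting are not given in the sources used here. Members, gene lists and most tests were chosen with earlier results of these data known.

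Symbols came from GENCODE M21 (42548 of 43629 identifiers). Counts were rounded, filtered by filterByExpr (minimum count 10), scaled by TMM and tested with edgeR 4.0.16 in R 4.3.3 (two-sided quasi-likelihood test without covariates; p adjusted by Benjamini-Hochberg over 15432 genes). Its prior degrees of freedom were 3.57. The steps were tested on simulated data. A count of 3 was 0.0442 to 0.0558 CPM before scaling, for counting error only. Groups were 3 against 3. Alternatives were DESeq2 1.42.0, limma 3.58.1 voom, other scalings and filters, an adjusted p under 0.1 and leaving out each library. The bias-adjusted quasi-likelihood test, and DESeq2 without Gata2+/+ replicate 3, were chosen after seeing the data. Named are all members, the 4 genes of smallest p per pathway list (fewer in the text), Gata2 and Kit, and the 5 most alike genes. Levels per kilobase use the union of M21 exons.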

Additional observations from a re-analysis of the deposited data

How the results depend on the processing

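Every member kept a negative log2 fold change under all alternatives except Atf3. It was 0.094 by limma voom, −1.98 to 1.78 when each library was left out, the highest without Gata2+/+ replicate 3, and 1.77 by DESeq2 without that library; the cause was not tested. Of the member values under the alternatives, 129 kept direction and side of the threshold, 7 passed it only there, 0 lost it and 3 reversed. No member passed the threshold in the main fit, so none could lose it, and the 129 all stayed short of it. The 7 were Junb, Jund, Jun, Fosb and Egr1 by DESeq2, and Junb and Egr1 by DESeq2 without Gata2+/+ replicate 3. The number of genes called, 0 by edgeR, was 1829 by DESeq2, 730 by DESeq2 without Gata2+/+ replicate 3, 444 at an adjusted p under 0.1, 32 by the bias-adjusted test, 19 with no filter beyond 1 count and 9 by limma voom. Leaving out each library gave 0 to 66, the most without Gata2+/f replicate 11 and 1 without Gata2+/+ replicate 6. Members lower at an unadjusted p under 0.05, 6 in all libraries, ranged from 3 to 8 (6.51% to 11.6% of all genes when a library was left out), with 3 without Gata2+/+ replicate 3, Gata2+/f replicate 7 or Gata2+/f replicate 9, and 3 by DESeq2 without Gata2+/+ replicate 3. The same count for the other immediate early genes, 13, ranged from 4 to 17 (4 without Gata2+/+ replicate 3, 7 without Gata2+/f replicate 7, 6 without Gata2+/f replicate 9), and was 4 by DESeq2 without Gata2+/+ replicate 3. Members whose groups did not overlap, 4 in the main scaling, were 2 (Junb and Egr1) with upper quartile factors (13.8% of all genes) and with library totals alone (11%), and 4 to 7 when a library was left out (19.5% to 22.6% of all genes, against 16.6% with all), with 7 on leaving out Gata2+/+ replicate 6 or Gata2+/f replicate 11. With upper quartile factors the median over all genes was 0.11, against 0.02 with TMM. No paired analysis was possible because the groups share no replicate number. Among the members, depth limits Egr2 and Egr3 most.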
